A study of Mus musculus with 8 samples.

Results

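Podocytes are the epithelial cells that wrap the capillaries of the kidney glomerulus, and 8 genes known for their roles in these cells were followed in whole kidneys of newborn mice. The genes were picked by name, with earlier results of these data known: Nphs1, Magi2, Plce1, Ptpro, Podxl, Synpo, Wt1 and Cdkn1c. They are 8 of 35976 listed gene symbols, and all 8 passed the filter on low values that left 18156 genes to test. Kidneys were collected at postnatal day 3, and poly(A)-selected RNA was sequenced in 8 libraries. Control mice were Slc12a3 Cre/+; C1 +/+ and mutant mice were Slc12a3 Cre/+; C1 YAP/+, so both genotypes carried 1 Cre allele driven from Slc12a3, which encodes the sodium chloride cotransporter of distal convoluted tubule cells. The study asked what active Yap1 in distal nephron segments does inside and outside those segments, and podocytes lie outside them. The labels do not say what C1 stands for. Each genotype had 2 male and 2 female libraries, numbered replicate 1 and 2 in each sex. The labels do not say whether these came from separate animals, so p-values measure the spread between libraries, which may be technical.

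Podocyte foot processes interlock around the capillary, and the gap between neighbouring processes is bridged by the slit diaphragm, an adhesion complex built around nephrin. Negatively charged surface proteins keep the processes apart, an actin scaffold holds their shape, and a small set of transcription factors keeps the cell in its differentiated, non-dividing state. In the first days after birth, mouse kidneys still form new glomeruli, so podocytes of several ages are present together.

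Levels are given as scaled RPKM, which is deposited RPKM (reads per kilobase per 1e6 reads) divided by a library factor. The replicate 1 libraries were deep, with totals of 78.2 to 87.1 times 1e6 reads, and the replicate 2 libraries were shallow, with 22.8 to 25.2 times 1e6. Replicate number is thus also a depth batch with 1 library of every group, and values within a batch are given where a named call depends on it. The first principal component separated the genotypes and carried 61.6% of the variance. Yap1 itself read 35.6 ± 4.03 in controls and 35.5 ± 0.781 in mutants (SD, n = 4), but whether reads of the C1 YAP allele count on it is not known here. Slc12a3, the gene that drives the Cre, read 14.2 ± 1.98 in controls and 1.41 ± 0.418 in mutants. Fold changes are mutant against control on the scale of log2(scaled RPKM + 0.1), and adjusted p-values come from limma with Benjamini-Hochberg adjustment over all 18156 genes, with a threshold of 0.05.

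RefSeq promoter windows (build GRCm38.p6) run from 250 bases before to 50 bases after a RefSeq start. Windows of 4 of the 8 genes were searched, and those of Nphs1, Ptpro and Magi2 are printed because these genes fell in the mutants. Wt1, Podxl and Cdkn1c had no window, and Synpo was not searched. The Ptpro start is the first base of the gene span given below. The starts of the Nphs1, Plce1 and Magi2 windows lie inside the spans given below, so they are not the outermost starts. Each is on the plus strand, written 5′ to 3′. The Nphs1 window is chr7:30459808-30460107, the Ptpro window chr6:137252049-137252348 and the first Magi2 window chr5:19226796-19227095. Capitals mark matches to any of the motifs described after the sequences.
Nphs1: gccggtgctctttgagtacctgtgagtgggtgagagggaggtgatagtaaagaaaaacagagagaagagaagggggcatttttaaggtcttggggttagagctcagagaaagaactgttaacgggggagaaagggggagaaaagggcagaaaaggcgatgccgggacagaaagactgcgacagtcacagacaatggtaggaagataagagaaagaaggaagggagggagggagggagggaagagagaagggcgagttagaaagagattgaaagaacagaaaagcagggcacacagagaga
Ptpro: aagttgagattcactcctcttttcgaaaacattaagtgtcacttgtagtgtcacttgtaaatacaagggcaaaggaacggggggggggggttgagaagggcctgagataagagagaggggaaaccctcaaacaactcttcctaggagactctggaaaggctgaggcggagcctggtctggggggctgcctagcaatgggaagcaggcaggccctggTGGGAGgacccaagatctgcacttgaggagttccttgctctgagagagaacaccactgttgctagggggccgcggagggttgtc
Magi2: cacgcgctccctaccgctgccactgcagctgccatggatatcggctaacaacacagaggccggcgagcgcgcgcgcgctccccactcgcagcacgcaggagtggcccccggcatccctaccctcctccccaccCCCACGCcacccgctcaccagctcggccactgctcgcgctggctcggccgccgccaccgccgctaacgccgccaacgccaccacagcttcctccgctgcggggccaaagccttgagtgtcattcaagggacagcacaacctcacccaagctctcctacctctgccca
Both strands were searched for 6 short motifs, namely GCGTGGG and GCGGGGG of WT1 and EGR factors, TGGGAG as a WT1 core, GGAATG of TEAD factors, TAATTA of LMX1B, and the GC box GGGCGG. The Ptpro window held TGGGAG with its first base 34 bases before the start, a motif found in 29.0% of 32544 windows of the same length. The first Magi2 window held GCGTGGG on the opposite strand, 117 bases before the start, which 5.08% of windows held. The other Magi2 window (chr5:19907268-19907567) held the TEAD motif (in 14.6% of windows), the LMX1B motif (5.29%), which reads the same on both strands, and the GC box (35.9%). The Nphs1 and Plce1 windows held none of the 6, which says only that these letters are absent there. The first pair of motifs differ at 1 base, GCGGGGG was found in 10.9% of windows, and the windows say nothing of binding in these kidneys.

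Of the 8 podocyte genes, 6 were lower in mutant kidneys and 0 were higher. Cdkn1c fell most, 3.09-fold, followed by Nphs1 (2.06-fold), Ptpro (1.70-fold), Podxl (1.68-fold), Magi2 (1.43-fold) and Wt1 (1.26-fold). Synpo and Plce1 did not pass the test. Across all genes tested 13.1% were lower in mutants, and 26.2% changed in either direction. For the same 6 genes every mutant library lay below every control library, a separation in one direction or the other that 30.5% of all genes tested showed. The median log2 change was -0.63 over the 8 genes and 0.00 over all genes tested. In bulk kidney RNA, fewer podocytes and less RNA per podocyte cannot be told apart. Reads behind these values, summed over the 4 libraries of a genotype, ran from 1475 for Magi2 in mutants to 203529 for Cdkn1c in controls.

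**Figure D1:**
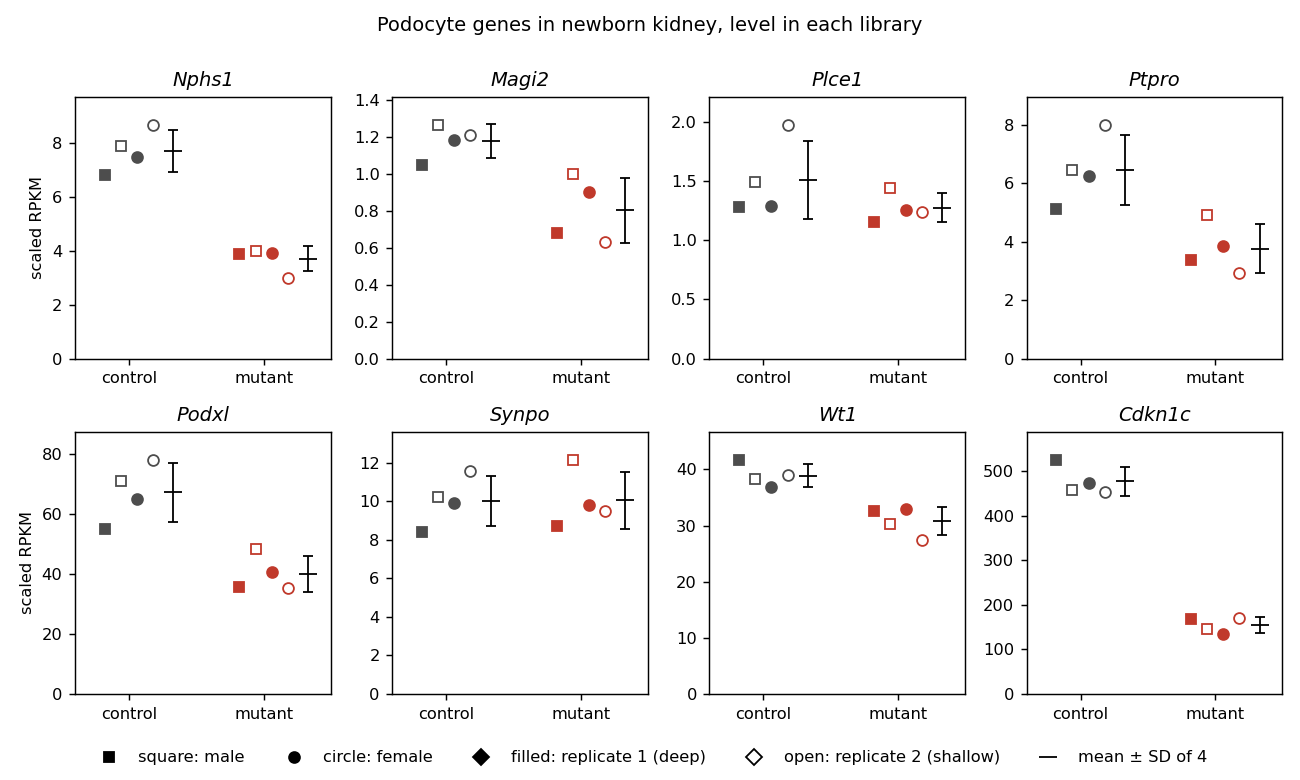
Scaled RPKM (y axes, each starting at 0) of the 8 podocyte genes in each of the 8 libraries, by genotype; squares are male, circles female, filled symbols replicate 1 and open symbols replicate 2, and bars give the mean ± SD of 4 libraries. Nphs1, Magi2, Ptpro, Podxl, Wt1 and Cdkn1c are lower in all 4 mutant libraries than in any control library, while Plce1 and Synpo overlap.

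Nphs1 encodes nephrin, the adhesion molecule at the core of the slit diaphragm. Its scaled RPKM was 6.805 and 7.90 in the male controls and 7.49 and 8.68 in the female controls, with replicate 1 given first here and for the other genes. In the mutants it was 3.90 and 3.99 in males and 3.92 and 3.005 in females. Mutant libraries were all at about the same level except the female replicate 2 library, which was lower, and the genotypes did not overlap. The mean went from 7.72 ± 0.784 to 3.70 ± 0.468 (SD, n = 4), a log2 change of -1.04 with a standard error of 0.12 (limma, Benjamini-Hochberg adjusted p = 0.000356). The fall was -0.85 on the log2 scale in the deep libraries and -1.23 in the shallow ones, and passed in each. Nphs1 lies on chromosome 7 from 30458207 to 30488623. Nphs1os, an antisense gene inside it (30462164 to 30465591), read 2.24 ± 0.328 in controls and 1.09 ± 0.253 in mutants, with a log2 change of -0.99 (limma, adjusted p = 0.00303). Nphs1os stood at 0.2895 ± 0.0169 of the Nphs1 level in controls and 0.291 ± 0.0406 in mutants. Whether the counting used strand is not given in the sources used here, and reads of the pair cannot be told apart.

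Magi2 encodes a scaffold protein that binds nephrin under the slit diaphragm. It was low throughout, at 1.05, 1.26, 1.18 and 1.21 in the male and then female controls and at 0.6765, 0.995, 0.8975 and 0.632 in the mutants in the same order. The highest mutant, male replicate 2, came close to the lowest control, male replicate 1, without reaching it. The mean fell from 1.18 ± 0.0918 to 0.800 ± 0.174 (SD, n = 4), a log2 change of -0.52 with a standard error of 0.16 (limma, adjusted p = 0.0404). It no longer passed when the left-out library was female control 1 (adjusted p 0.0984), female control 2 (0.0829), female mutant 2 (0.104), male control 2 (0.109) or male mutant 1 (0.119), and with no low-value filter (0.0658). It also missed the threshold within the deep (0.114) and the shallow (0.152) libraries, where the log2 changes were -0.46 and -0.58. Magi2 lies on chromosome 5 from 19219387 to 20704792.

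Plce1 encodes phospholipase C epsilon, mutated in a form of childhood nephrotic syndrome. Its levels were 1.28, 1.49, 1.29 and 1.98 in controls and 1.15, 1.45, 1.26 and 1.24 in mutants. Female control replicate 2 stood above the rest, and the other 7 libraries overlapped. The means were 1.51 ± 0.327 and 1.27 ± 0.123 (SD, n = 4), a log2 difference of -0.21 with a 95% interval from -0.56 to 0.14 (limma, adjusted p = 0.363). That interval includes falls as large as the one of Magi2. Plce1 lies on chromosome 19 from 38481034 to 38785105.

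Podxl encodes podocalyxin, the sialic acid-rich protein that coats foot processes, and is also made by blood vessel endothelium. It read 55.0, 70.9, 64.8 and 77.9 in controls and 35.5, 48.1, 40.8 and 35.3 in mutants. All mutant libraries lay below the lowest control, male replicate 1. The mean fell from 67.2 ± 9.72 to 39.9 ± 6.02 (SD, n = 4), a log2 change of -0.75 with a standard error of 0.14 (limma, adjusted p = 0.00449). It passed within the deep (-0.65) and the shallow (-0.85) libraries. Podxl lies on chromosome 6 from 31519493 to 31563937. Of 12 endothelial markers 6 were lower, against 13.1% of all genes tested, 0 were higher and 6 did not pass. Their median log2 change was -0.57, and their summed level was 210 to 234 in controls and 146 to 179 in mutants. Kdr (log2 -0.37) and Flt1 (log2 -0.17) were among those that did not pass. Tek, an angiopoietin receptor, fell by 0.73 on the log2 scale, Emcn by 0.66, Pecam1 by 0.53 and Sema3d by 0.91. No marker of that list had a mean of 0 in either genotype, and the part of endothelium in the Podxl result was not tested.

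Ptpro encodes a receptor tyrosine phosphatase of the podocyte surface. Its levels were 5.11, 6.46, 6.24 and 8.01 in controls and 3.36, 4.91, 3.86 and 2.94 in mutants. The highest mutant, male replicate 2, lay just under the lowest control, male replicate 1. The mean fell from 6.45 ± 1.19 to 3.77 ± 0.851 (SD, n = 4), a log2 change of -0.77 with a standard error of 0.18 (limma, adjusted p = 0.015). It no longer passed when male mutant replicate 1 was left out (adjusted p 0.0533) and within the shallow libraries (log2 -0.90, 0.0593), and held within the deep ones (log2 -0.64, 0.0147). Ptpro lies on chromosome 6 from 137252299 to 137464634.

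Synpo encodes synaptopodin, an actin-associated protein of foot processes. It read 8.39, 10.2, 9.90 and 11.55 in controls and 8.72, 12.1, 9.825 and 9.49 in mutants. The genotypes overlapped throughout, with the highest value in a mutant and the lowest in a control. The means were 10.02 ± 1.30 and 10.04 ± 1.47 (SD, n = 4), a log2 difference of 0.00 with a 95% interval from -0.29 to 0.30 (limma, adjusted p = 0.995). That interval does not reach the estimated falls of Wt1, Magi2, Podxl, Ptpro, Nphs1 or Cdkn1c.

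Wt1 encodes a zinc finger transcription factor needed to form and keep podocytes, and is also expressed in nephron progenitors. It read 41.7, 38.2, 36.8 and 38.9 in controls and 32.6, 30.3, 32.9 and 27.5 in mutants. The groups did not overlap, and the gap between the highest mutant and the lowest control was small. The mean fell from 38.9 ± 2.03 to 30.8 ± 2.505 (SD, n = 4), a log2 change of -0.34 with a standard error of 0.08 (limma, adjusted p = 0.0139). It kept its call without any one library, with an adjusted p of up to 0.0433. Within the deep libraries it missed the threshold (log2 -0.26, 0.169), and within the shallow ones it lay just over it (log2 -0.42, 0.05). Of 9 nephron progenitor markers, 2 were lower (22.2%, against 13.1% of all genes tested), namely Crym (log2 -1.46) and Itga8 (log2 -0.60). In that list 0 were higher, and the median was -0.35. That median was -0.18 without female control 1, -0.21 without male control 1 and -0.22 without female mutant 2. Their summed level was 69.7 to 87.7 in controls and 51.05 to 70.9 in mutants, Six2 was 2.37 ± 0.909 and 1.78 ± 0.411, and none had a mean of 0. Itga8 is also on the list of mesangial markers and is counted as lower in both lists. The part of progenitors in the Wt1 result was not tested. Wt1 lies on chromosome 2 from 105126529 to 105173614. Wt1os, listed just upstream of Wt1, read 1.20 ± 0.2315 and 1.045 ± 0.130 and did not pass (log2 -0.18, limma adjusted p = 0.451).

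Cdkn1c, an imprinted gene for a cell cycle inhibitor of the CIP/KIP family, marks podocytes that have stopped dividing and is also made by other cells of the young kidney. It had the highest level of the 8 genes, at 525, 458.5, 474 and 452.5 in controls and 168, 146, 135 and 170 in mutants. The genotypes were far apart, and no mutant reached the level of any control. The mean fell from 477 ± 32.8 to 155 ± 17.0 (SD, n = 4), a log2 change of -1.63 with a standard error of 0.10 (limma, adjusted p = 1.43e-05). By mean level it went from rank 160 to rank 518 among the genes tested. It passed within either batch, with a log2 change of -1.73 in deep and -1.53 in shallow libraries. Cdkn1c lies on chromosome 7 from 143458339 to 143461059. The summed level of the 8 genes, most of it from Cdkn1c, was 595 to 644 in controls and 228.5 to 253.5 in mutants.

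The other CIP/KIP inhibitors did not fall. Cdkn1a rose from 40.8 ± 2.34 to 59.9 ± 1.96 (SD, n = 4), by 0.55 on the log2 scale (limma, adjusted p = 0.000607), and Cdkn1b read 16.3 ± 1.09 and 18.3 ± 1.91 (log2 0.16, adjusted p = 0.238). Of 9 genes from the imprinted region around Cdkn1c, 2 were lower (22.2%, against 13.1% of all genes tested) and 0 higher. Their median log2 change was 0.01. Slc22a18, a transporter-like gene listed next to Cdkn1c from 143473726 to 143499334, fell 3.22-fold from 20.51 ± 1.74 to 6.37 ± 1.26 (limma, adjusted p = 5.65e-05). Igf2, a fetal growth factor, fell by 0.51 on the log2 scale (adjusted p = 0.0169), which missed the threshold when female mutant 2 (0.0518) or male mutant 1 (0.0587) was left out. The other 7 did not pass, among them Kcnq1ot1 (log2 0.01), the noncoding RNA that silences the paternal copy of Cdkn1c, Phlda2 (0.19) and H19 (-0.11).

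**Figure D2:**
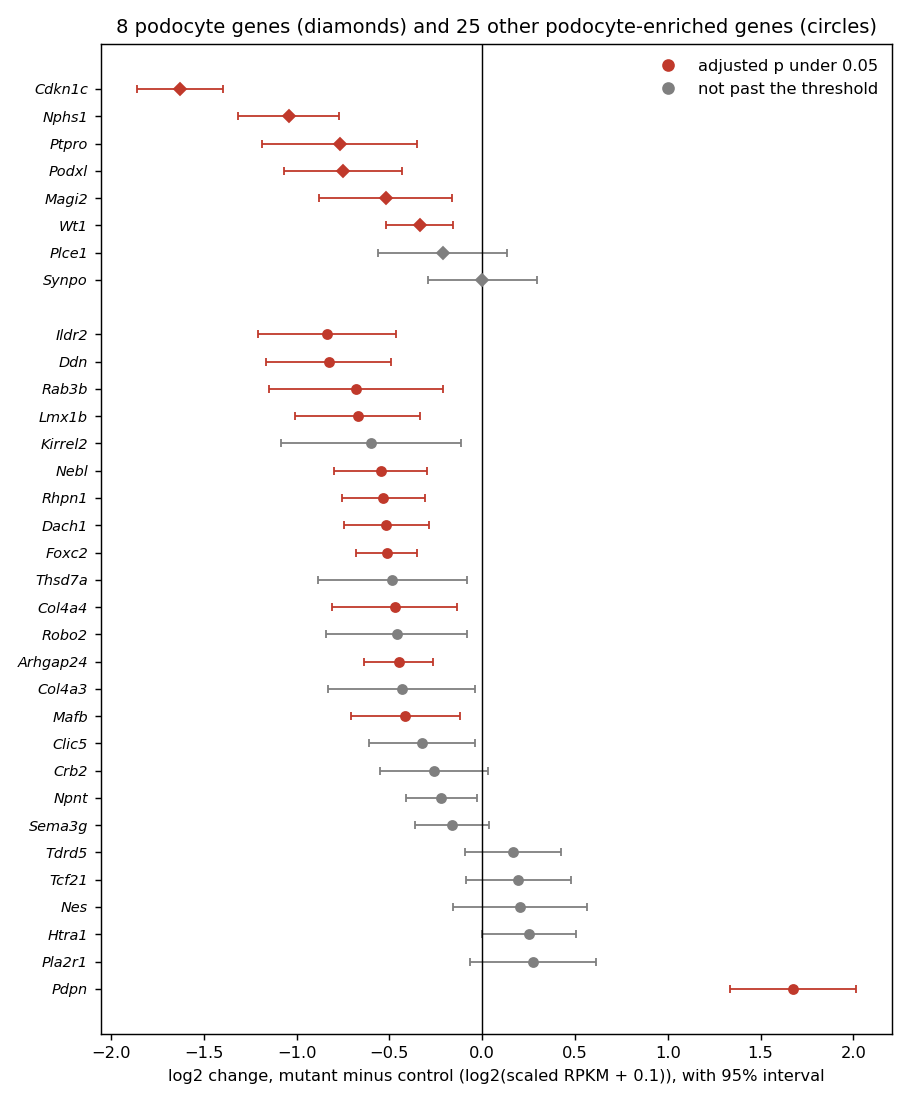
Log2 change, mutant minus control, with its 95% interval (x axis, on log2(scaled RPKM + 0.1)) for the 8 podocyte genes (diamonds) and 25 of the 26 other podocyte-enriched genes (circles); red marks an adjusted p under 0.05. Most estimates lie left of 0, and Pdpn, at 1.68, is the only one past the threshold to the right. Lower past it are 6 of the 8 and 11 of the 26, against 13.1% of all genes tested.

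Among 26 further podocyte-enriched genes, 11 were lower, 1 was higher and 14 did not pass, with a median log2 change of -0.44. Across all genes tested 13.1% were lower and 26.2% passed in either direction, against 46.2% of this list in either direction. Ddn, which encodes dendrin, fell 1.77-fold and Ildr2 1.78-fold. The transcription factor genes Lmx1b (1.59-fold), Foxc2 (1.43-fold) and Dach1 (1.43-fold) fell, as did the cytoskeletal regulators Arhgap24 (1.37-fold) and Rhpn1 (1.45-fold) and the actin-binding Nebl (1.46-fold). Rab3b, a vesicle-traffic GTPase, fell 1.60-fold (limma, adjusted p = 0.0413), but no longer passed when any one of 6 libraries was left out (adjusted p 0.0634 to 0.104), namely all but female mutant 2 and male control 2, or when no low-value filter was used (0.0752). Its log2 change was -0.98 in deep libraries and -0.38 in shallow ones, where it did not pass (adjusted p 0.219). Within the deep libraries Lmx1b (log2 -0.43, adjusted p 0.158) and Dach1 (log2 -0.34, 0.0915) did not pass, and they did within the shallow ones. Nebl passed in neither batch (log2 -0.57 and adjusted p 0.0588 in deep, log2 -0.53 and 0.178 in shallow libraries). In the deep libraries alone 6 of the 26 were lower (against 9.41% of all genes tested), and in the shallow ones 8 (against 8.41%). Leaving out 1 library at a time left 8 to 13 lower.

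Other podocyte-enriched genes rose or did not pass. Pdpn, which encodes podoplanin and is also expressed by lymphatic vessels and some stromal cells, rose 3.20-fold from 17.0 ± 3.40 to 54.0 ± 6.16 (limma, adjusted p = 8.32e-05). Tcf21, a transcription factor gene of podocytes and stroma, read 170 ± 23.7 and 194 ± 23.4 (log2 0.19, adjusted p = 0.305). The summed level of the 26 genes, to which Tcf21 and Npnt gave the most, was 539 to 597 in controls and 537 to 609 in mutants. Tcf21 is outside the rule for named genes and was chosen after its values were seen.

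Within each library, podocyte genes were also read against each other, in pairs chosen after the values were seen. Nphs1 per Wt1 was 0.199 ± 0.0253 in controls and 0.120 ± 0.00908 in mutants, and Podxl per Wt1 was 1.73 ± 0.293 and 1.30 ± 0.209. Synpo per Nphs1 was 1.30 ± 0.0446 in controls and 2.735 ± 0.437 in mutants. Cdkn1c per Wt1 was 12.3 ± 0.565 and 5.06 ± 0.868 (SD, n = 4 throughout). In these ratios all 4 control libraries were apart from all 4 mutant libraries except for Podxl per Wt1, where male mutant replicate 2 (1.59) lay above male control replicate 1 (1.32). No test was run on the ratios.

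**Figure D3:**
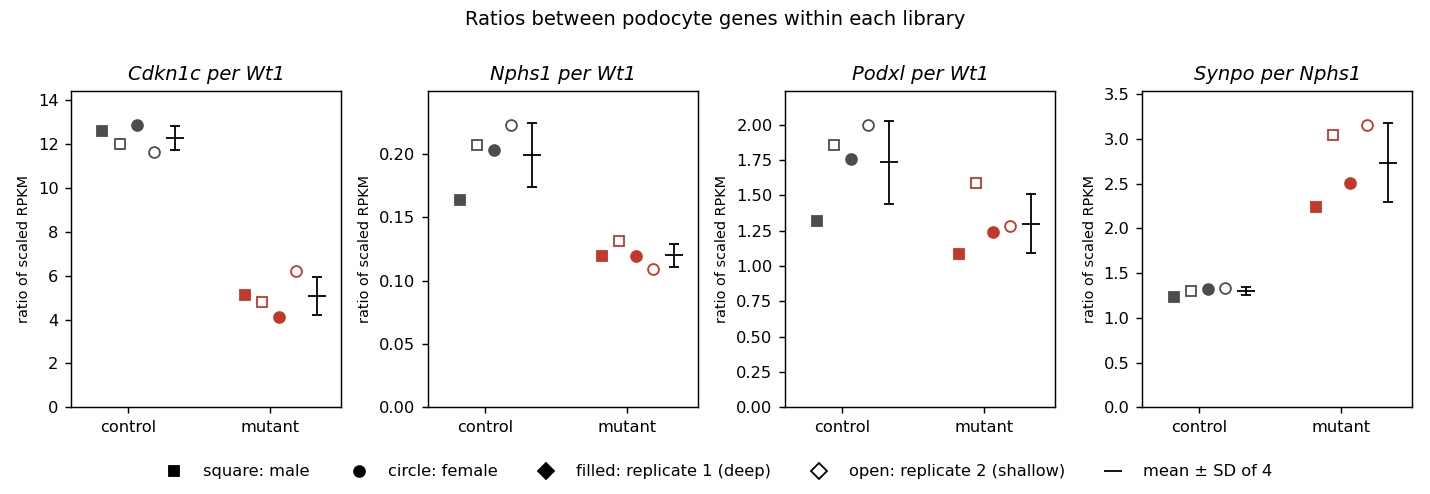
Ratio of scaled RPKM of 2 podocyte genes within each library (y axes, each starting at 0), by genotype; squares are male, circles female, filled symbols replicate 1 and open symbols replicate 2, and bars give the mean ± SD of 4 libraries. Cdkn1c per Wt1 goes from 12.3 to 5.06 and Nphs1 per Wt1 from 0.199 to 0.120, while Synpo per Nphs1 goes from 1.30 to 2.735.

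Partners of these proteins that tubule and stromal cells express as well were also read. Of 26 such genes 9 were higher, 2 were lower and 15 did not pass, with a median log2 change of 0.18. The share called in either direction was 42.3%, against 26.2% of all genes tested. Across all 18156 genes tested 2373 were higher and 13.1% were lower. Itga3, the integrin that holds podocytes to the basement membrane, rose 3.73-fold, Cd2ap, a nephrin adaptor, 1.48-fold, the actin crosslinker Actn4 1.61-fold and the integrin-linked kinase Ilk 1.34-fold. The lower ones were Slc9a3r2 (log2 -0.46), an adaptor that links podocalyxin to ezrin, and Synpo2 (log2 -0.95), a relative of Synpo, both named because only 2 fell. Within the deep libraries Ilk did not pass (log2 0.35, adjusted p 0.0983), and within the shallow ones Slc9a3r2 did not (log2 -0.42, 0.0533). Higher calls dropped to 5 when the left-out library was female control 1, female mutant 1, male mutant 1 or male mutant 2, and within the shallow libraries. Lower calls dropped to 1 when female mutant 1, female mutant 2, male control 2 or male mutant 1 was left out, and within the shallow libraries. Higher calls rose to 10 without female control 2 and stayed at 9 within the deep libraries, and lower calls rose to 3 without male control 1.

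Relatives of the 8 genes gave 2 higher, 2 lower and 8 not passed of 12. That is 33.3% called, near the 26.2% of all genes tested. Synpo2l, a muscle relative of Synpo, rose from 0.125 ± 0.00899 to 2.42 ± 0.369 (SD, n = 4), by 3.48 on the log2 scale (limma, adjusted p = 1.34e-06). Ptprj, a receptor phosphatase like Ptpro, was higher by 0.58 on the log2 scale (adjusted p = 0.0156), and missed the threshold when male mutant 1 was left out (0.0544) and within the shallow libraries (log2 0.43, 0.153). The lower ones, Synpo2 (log2 -0.95) and Plcb1 (log2 -0.54), each missed the threshold when female mutant 1, female mutant 2, male control 2 or male mutant 1 was left out (adjusted p 0.0506 to 0.0606), and Plcb1 also within the deep (0.0702) and the shallow (0.0648) libraries. Podxl2 and Cd34, relatives of Podxl, gave log2 changes of -0.30 and -0.27 and did not pass (limma, adjusted p = 0.0833 and 0.0799), though Podxl2 did when female mutant 1 was left out (0.0182) and Cd34 when female mutant 2 was (0.00952).

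Lists of neighbouring cells give the setting in which these changes were measured. Of all genes tested 26.2% passed in either direction and 13.1% were lower. Mesangial markers were lower for 5 of 8 and higher for 0, with a median of -0.41; Agtr1a, an angiotensin receptor gene, fell by 0.89 on the log2 scale. Their summed level was 190 to 206 in controls and 181 to 218 in mutants. Parietal epithelial markers, from the cells that line the glomerular capsule, were higher for 4 of 9 and lower for 1, with a median of 0.59 and sums of 288 to 309 against 873 to 1065. Krt8, a keratin of simple epithelia and tubules as well, made up most of that rise (5.34-fold). Proximal tubule markers were lower for 12 of 12, with a median of -1.999 and sums of 4314 to 5287 against 980 to 1387. Macrophage markers were higher for 8 of 8, with a median of 1.67 and sums of 53.2 to 66.1 against 197 to 228. In deep libraries alone 3 mesangial markers were lower, with a median of -0.24, and the parietal median was 0.38 without male mutant 2. Early nephron markers were higher for 1 of 9, Ccnd1, with a median of 0.05 that was 0.33 in deep and -0.30 in shallow libraries. The Ccnd1 call was lost when any one library other than female control 2 or female mutant 2 was left out (adjusted p 0.054 to 0.105), and in shallow libraries (0.411). Stromal markers were lower for 3 and higher for 1 of 8, with a median of -0.18. Lower stromal calls dropped to 1 without female control 2, female mutant 1 or male mutant 1 and to 0 in shallow libraries, and the higher one, Postn, was lost without female control 1, female mutant 2, male control 2 or male mutant 2 (adjusted p 0.0858 to 0.095) and in deep libraries (0.156). The stromal median ran from -0.32 to -0.10 when 1 library was left out. None of these markers had a mean of 0 in either genotype, and the part of such cells in the podocyte gene results was not tested.

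**Figure D4:**
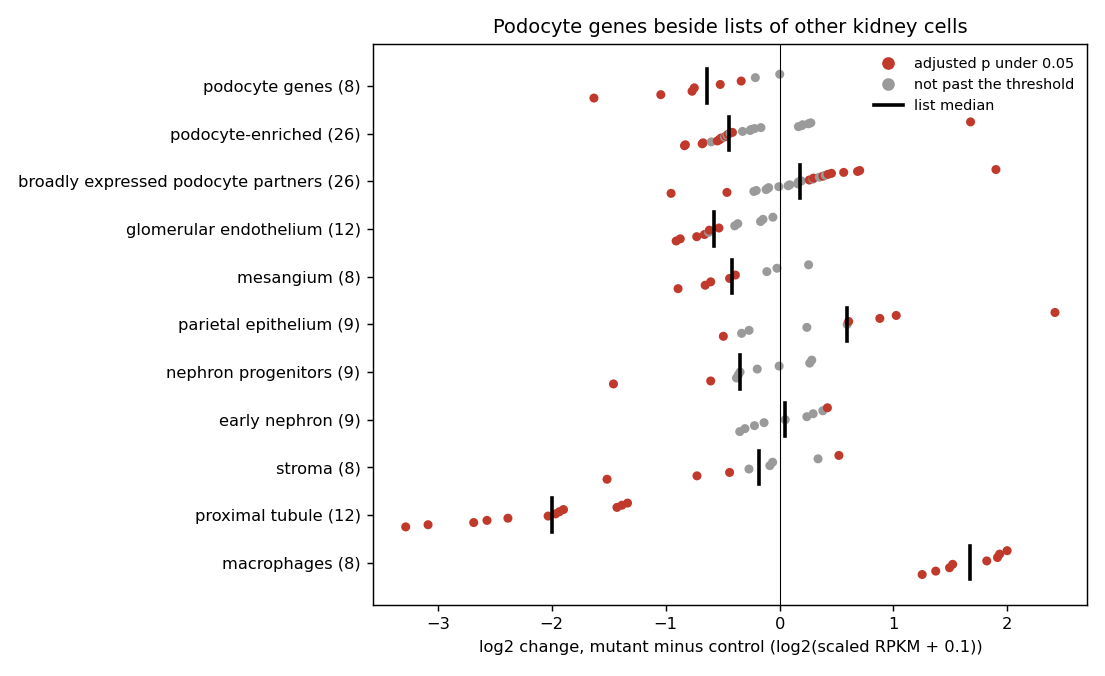
Log2 change, mutant minus control (x axis, on log2(scaled RPKM + 0.1)), of each gene in the 8 podocyte genes and in 10 marker lists (rows, number of genes in brackets); red marks an adjusted p under 0.05 and black bars the list median. The podocyte genes (median -0.63) lie left of 0 with the endothelial and mesangial lists, proximal tubule genes lie farther left (-1.999), and macrophage genes lie to the right (1.67).

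The question whether the falls differed by sex had no call. Within males Nphs1 and Cdkn1c were lower past the threshold (2 of 8, against 7.47% of all genes), and within females Nphs1, Podxl, Ptpro and Cdkn1c were (4 of 8, against 5.78%). For 6 of the 8 genes the estimate was more negative in females. The interaction itself passed for 0% of all genes tested and for 0 of the 8 (limma), with 553 genes and 0 of the 8 at an unadjusted p under 0.05 and 0 genes by voom. Ptpro had the widest gap, -0.49 in males and -1.05 in females, a difference of 0.56 with a 95% interval from -0.21 to 1.33 (limma, adjusted p = 0.947). For Cdkn1c the difference was -0.04, with an interval from -0.55 to 0.47, and for Wt1 -0.01, from -0.41 to 0.39. With 2 libraries per group, these intervals leave room for sex differences as large as several of the falls themselves.

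**Figure D5:**
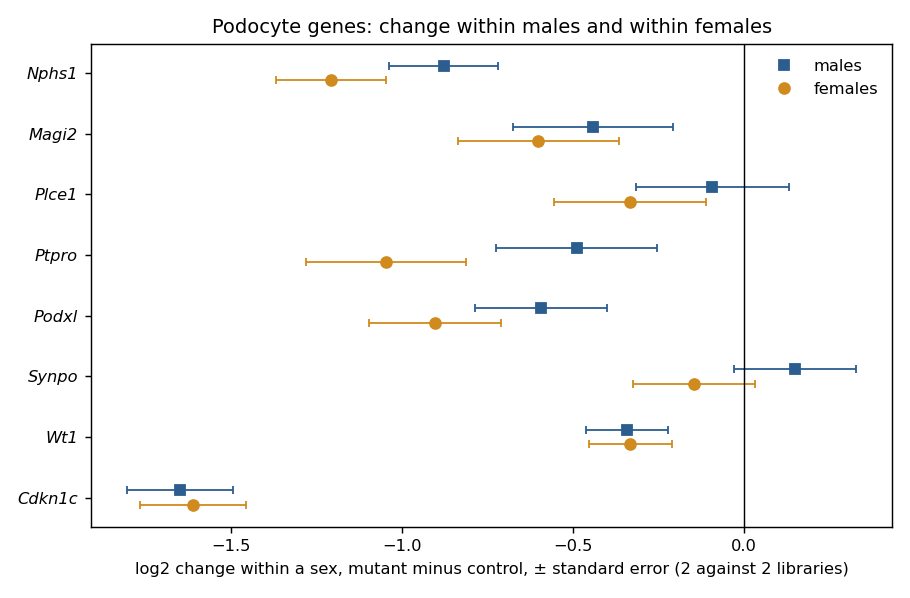
Log2 change, mutant minus control, within males (squares) and within females (circles) for the 8 podocyte genes, with standard errors from the fit of 4 group means (2 against 2 libraries). Nphs1, Podxl and Ptpro sit farther left in females and Cdkn1c and Wt1 at about the same place, and the interaction passed for none of the 8.

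Within each depth batch the 6 genes that fell were lower in mutants, a direction fixed in advance because their genotypes do not overlap. In the deep libraries Nphs1, Podxl, Ptpro and Cdkn1c passed (4 of 8, against 9.41% of all genes lower), and in the shallow ones Nphs1, Podxl and Cdkn1c did (3 of 8, against 8.41%). The median over the 8 genes was -0.55 in deep and -0.71 in shallow libraries. These fits used 4 libraries each.

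Libraries of one group also differed among themselves in a shared way. In all 4 groups Nphs1, Magi2, Plce1, Ptpro and Synpo were higher in the same library as Podxl, which was the shallow one except in female mutants. Cdkn1c was the opposite in all 4 groups, and Wt1 matched Podxl in 2 of 4. The order of Podxl was not particular to podocyte genes: Yap1, Kdr, Flt1 and Actn4 had it too, while Tcf21 did not. How many of all genes tested shared it was not counted. Cdkn1c (2001 bases) and Wt1 (3092 bases) are the shortest of the 8 genes, and a part of gene length was not tested. Deviations of a gene from its group means were correlated with the mean deviation of the other podocyte genes, leaving the gene itself out. The correlation was 0.991 for Ptpro, 0.959 for Podxl, 0.029 for Wt1 and -0.896 for Cdkn1c. It was taken over 8 libraries that hold 4 independent differences and share depth. Against the mean deviation of all 8 genes, the closest of 14617 genes outside the lists were Lyst (0.9995), S1pr4 (0.9989), Gna13 (0.9982), Camk2d (0.9982) and Slc20a2 (0.9979). These values rest on few free differences and are given as a description.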

How the data were processed

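The authors deposited 1 table of RPKM per gene symbol with gene lengths. STAR, featureCounts and build mm10 are named in the submitters' processing notes; the sources used here give no versions, annotation or strand setting. RPKM times length gave whole reads for all 179720 nonzero values (100.0%, within 0.01 of a read; largest deviation 1.1e-09), so depth was recovered. Listed genes held 96.7% to 97.1% of each total. Genes were tested if at least 2 libraries reached 0.2 reads per 1e6 and all libraries together held 15 reads. RPKM was divided by trimmed-mean-of-M-values factors (own implementation, trims 0.3 and 0.05; 0.976 to 1.02).

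A count model had been planned if the unit was counts; as it was RPKM, limma 3.58.1 (R 4.3.3; trend, robust) was run on log2(scaled RPKM + 0.1), with genotype and sex as terms, or 4 group means for sex-specific changes and the interaction. The pseudocount understates changes of low genes. Fits within a depth batch leave 1 degree of freedom per gene before variances are shared. As a test on the recovered reads, voom called 5046 genes for genotype against 4750. The code was tested on simulated data.

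The 8 genes and all lists were chosen with earlier results of these data known. By rule, all 8 genes are named, with up to 10 podocyte-enriched genes and up to 4 genes of every other list. Genes of a list were those with the lowest p past the threshold. Genes with the most similar deviations needed a mean of 1 read per 1e6. Also named, outside this rule, are Yap1, Slc12a3, Tcf21, Npnt, Kdr, Flt1, Six2, Cdkn1b, Kcnq1ot1, Phlda2, H19, Slc9a3r2, Podxl2, Cd34, Nphs1os and Wt1os. Gene coordinates are from RefSeq on GRCm38. Other scalings, pseudocounts, filters, covariates and left-out libraries were tried. The exact permutation test over 4 against 4 libraries gave its smallest possible p, 0.0286, for each of the 6 genes called. That value is unadjusted and adds nothing to their separation by genotype, from which it follows. Of all genes tested 30.5% were separated in this way. Promoter windows came from RefSeq. A result for 1 gene of the podocyte-enriched list is not reported here, though the list's counts include it.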

Additional observations from a re-analysis of the deposited data

Results flagged for a closer look

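In 6 of 122 genotype groups, over the 61 genes examined, 1 library stood apart from the other 3 by Dixon's gap ratio with its usual 95% limit for 4 libraries; chance flags about 1 in 20 groups. Nphs1 in mutants was low in female replicate 2, at 3.005 scaled RPKM against 3.90 for the next library (gap ratio 0.906). Ddn (0.868) and Nebl (0.899) in controls were high in female replicate 2, at 4.91 against 3.98 and at 1.42 against 1.22. Scin in mutants was low in female replicate 2 (0.857; 50.7 against 57.4). Lum in controls was high in male replicate 1 (0.852; 15.2 against 7.07), and C1qc in controls was low in male replicate 2 (0.847; 11.05 against 13.2). Leaving out female mutant replicate 2 kept the Nphs1 call.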

How the results depend on the processing

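The count of genes called for genotype was 4750, between 3613 and 4838 when 1 library was left out, and 3301 with the deep (replicate 1) and 3128 with the shallow (replicate 2) libraries alone. The 6 podocyte genes called became 4 with the deep and 3 with the shallow libraries and 4 to 6 when 1 library was left out, fits that use fewer samples. They became 5 with no low-value filter, which adjusts p over more genes and leaves the Magi2 change as it was. Over the other scalings, pseudocounts, stricter filter, covariates and voom the count stayed at 6, and the interaction at 0 in every setting run. Of 160 comparisons of single podocyte genes with an alternative, 144 kept direction and side of the threshold, 12 lost the call and 4 changed sign, all for Synpo. Synpo went from a log2 difference of 0.00 to -0.0193 in the shallow libraries and ran from -0.1223 to 0.0752 when 1 library was left out. Yap1 went from 0.00 to -0.1176 in the shallow libraries and ran from -0.0716 to 0.0619; the cause was not tested. Same-numbered libraries share a depth, and 4 of 6 pairs of groups deviated together with a correlation over 0.1 (range -0.0028 to 0.379). Since not all did, and the labels name no shared source, the numbers were not taken as pairs. With a replicate block 5470 genes, 6 of the 8 and 0 interactions passed. Magi2 and Plce1 have the fewest reads, and 2 libraries per sex limit the interaction. No alternative was added after the data were seen.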
